A study of Mus musculus with 2 samples.

Results

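Fatty acid oxidation takes place mostly in mitochondria, and skeletal muscle is one of the tissues that depend on it most, at rest, during fasting and in prolonged exercise. Long-chain fatty acids enter the mitochondrial matrix as carnitine esters, are shortened in repeated cycles of dehydrogenation, hydration, dehydrogenation and thiolysis, and pass the electrons of the first step through a flavoprotein relay to ubiquinone in the respiratory chain. Nuclear respiratory factor 1 (NRF1) binds a GC-rich palindrome and is known for its sites in promoters of respiratory chain genes. To determine whether it also occupies promoters of the oxidation enzymes in muscle, 10 genes were examined: Cpt1a, Cpt1b and Cpt2 of the carnitine shuttle, the acyl-CoA dehydrogenases Acadvl, Acadl, Acadm and Acads, the trifunctional protein genes Hadha and Hadhb, and Etfdh of the electron relay. They were chosen by name, for their place in the pathway, from 21000 protein-coding genes, but with earlier results of these data known.

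The study performed chromatin immunoprecipitation followed by sequencing (ChIP-seq) with an NRF1 antibody on skeletal muscle of wild-type mice. Its mice are described as male and on a C57BL/6J background, and an age of 9 weeks is given in a legend on NRF1 target genes, not in the methods for this experiment. The 2 libraries carry the same labels (wild-type, skeletal muscle, NRF1 antibody), but the study's reporting summary names the second as input DNA. The data examined are 1 list of 3226 peaks, named after the first library, so no value below has a replicate error, and the read depth behind the peaks is unknown. The study states a somewhat smaller number of NRF1 binding sites than this list holds, and the reason is unknown. In whole muscle, occupancy in few nuclei and weak occupancy in many cannot be told apart. Promoters of 5 myofibre genes (Acta1, Ckm, Myh1, Myh4 and Ttn) carried 0 peaks, and because occupancy by NRF1 is not a measure of expression the labelled tissue could not be checked with them.

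Acadm and Etfdh carried an NRF1 peak in their promoters, and the other 8 genes did not. A promoter was taken as 1000 bp before to 100 bp after an annotated start, and a promoter peak as one whose summit, the point of highest signal, lay inside it. This makes 2 of 10 genes, or 20%, beside 13.4% of all protein-coding genes (2808 of 21000). With 10 genes, a share this close to the background says nothing particular about the group. Acadm encodes the medium-chain acyl-CoA dehydrogenase, which makes the first double bond in chains of intermediate length. Etfdh encodes the electron transfer flavoprotein dehydrogenase, the membrane enzyme that receives electrons from all these dehydrogenases through the flavoprotein and hands them to ubiquinone.

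The sequences at these summits are shown because each holds the NRF1 motif that the other 8 promoters lack. Both are from chromosome 3 of the mm10 genome, are written 5′ to 3′ on the minus strand, which is the direction of both genes, and have copies of the palindrome GCGCATGCGC with at most 1 mismatch in capitals. The Acadm sequence covers 50 bp on either side of the summit (chr3:153944742-153944842) and the Etfdh sequence 75 bp (chr3:79628868-79629018). All of both stretches lies before the start of the gene.
Acadm: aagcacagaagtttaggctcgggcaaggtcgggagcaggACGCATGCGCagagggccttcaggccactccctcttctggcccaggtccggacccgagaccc
Etfdh: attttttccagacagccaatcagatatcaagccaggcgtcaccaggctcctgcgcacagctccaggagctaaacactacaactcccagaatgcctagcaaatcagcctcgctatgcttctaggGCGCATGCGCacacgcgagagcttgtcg

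The Acadm peak lay on chromosome 3 from 153944556 to 153944918, and reached from 275 bp before the start of the gene to 87 bp after it, into the first exon. Its summit was 149 bp before the start. Fold enrichment, which compares the summit with the control background estimated by the peak caller, was 14.5, and −log10 q was 45.8. Of the 2607 promoter peaks in the list, 66.8% had a lower fold enrichment, the median being 11.1 with quartiles of 7.9 and 16.4. The peak thus stood between the median and the upper quartile of promoter peaks. It was 363 bp wide, against a median of 296 bp. No other gene had its start at this peak.

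In Acadm the motif was almost at the summit. The copy started 160 bp before the start of the gene, was centred 6.5 bp from the summit and differed from the palindrome by G1A, where positions count from the 5′ end of the palindrome in the direction of the gene. Among the 1719 promoter peaks that held the motif within 100 bp of the summit, 25.3% had a copy centred nearer than this. The sequence around the summit was poor in CpG for a promoter peak. Observed CpG was 0.487 of the number expected from base content over 201 bases, and 1.65% of promoter peaks had a lower one. The median of promoter peaks was 0.926.

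The Etfdh peak, on chromosome 3 from 79628654 to 79629091, was wider, at 438 bp, and spanned a pair of starts. The gene 4930579G24Rik, which is protein-coding in the RefSeq annotation, starts 312 bp before Etfdh on the opposite strand. The summit lay between them, 176 bp before the start of Etfdh and 136 bp before that of 4930579G24Rik, and therefore in both promoters. Which of these genes the site serves cannot be told from a peak. Fold enrichment was 10.9, above that of 48.3% of promoter peaks, and −log10 q was 41.5. The peak was at about the median of promoter peaks by fold enrichment, and above 71.3% of them by q-value.

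In Etfdh the palindrome was exact but stood away from the summit. The exact copy, shown in capitals above, was centred 52.5 bp from the summit, on the side of Etfdh, and 91.9% of the motif-bearing promoter peaks had a copy closer to the summit. An exact copy is the less common form: 10.9% of promoter peaks held one within 100 bp of the summit, against 65.9% that held a copy with at most 1 mismatch. On the other side of the summit, 25.5 bp from it, stood a copy with 2 mismatches (G3T and A5C). The observed to expected CpG was 0.61 around this summit, and 4.99% of promoter peaks had a lower value.

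**Figure D1:**
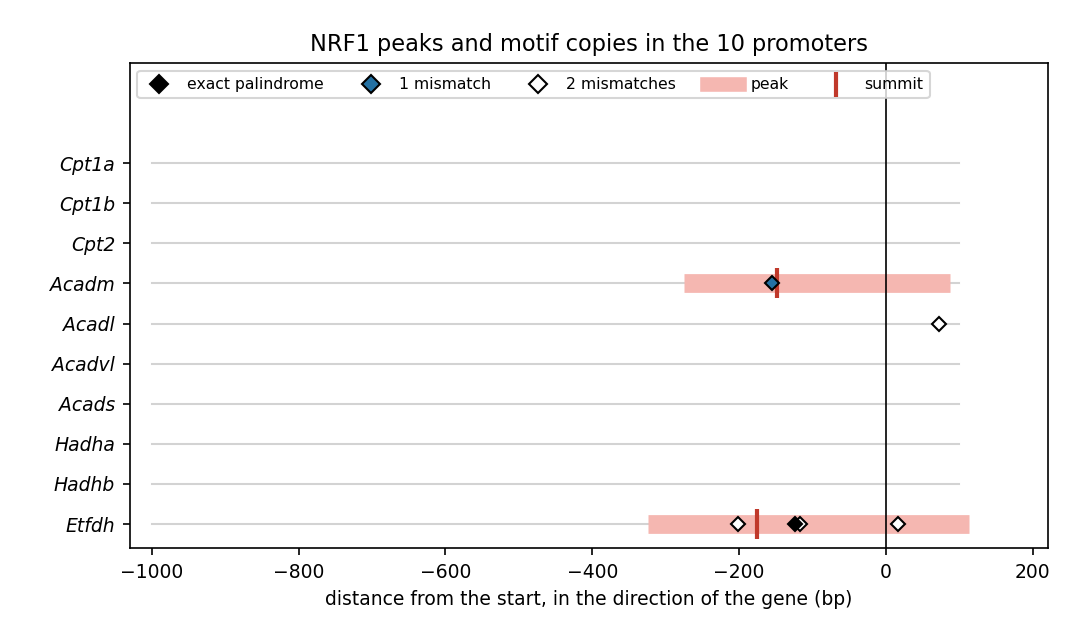
Promoters of the 10 genes, drawn over the 1000 bp upstream and 100 bp downstream of the start (x axis, bp in the direction of the gene); pink bars are peaks, red ticks summits, and diamonds the centres of motif copies with 0, 1 or 2 mismatches. Peaks are present at Acadm and Etfdh, whose summits lie 149 and 176 bp before the start, and the only copies with at most 1 mismatch are in these promoters.

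The motif and the peaks fell in the same promoters. With at most 1 mismatch, the palindrome was present in 2 of the 10 promoters, Acadm and Etfdh, beside 12.1% of all genes, and both copies lay in the peaks described above. None of the 8 promoters without a peak held such a copy. In Acadl the best match had 2 mismatches and stood 68 bp after the start, and in Cpt1a it had 4. In Cpt1b, Cpt2, Acadvl, Acads, Hadha and Hadhb it had 3. Over all protein-coding genes, 75.4% of the 2548 with the motif in the promoter had a promoter peak, and 89.4% of the 368 with the exact palindrome. Of the 18452 genes without the motif, 4.81% had a peak. Of the 18192 genes without a promoter peak, 17564 lacked the motif, and 1920 of the 2808 with a promoter peak held it. The match of motif and peak in these 10 genes is therefore nothing particular to them. In the shorter stretch of 250 bp upstream and 50 bp downstream, both Acadm and Etfdh still held the motif, beside 9.66% of all genes.

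Looking further out, 4 copies of the motif with at most 1 mismatch lay within 10000 bp of the starts of these genes. Of the 10 genes, 6 had no copy there. Those of Acadm and Etfdh were in their promoter peaks. The third was 8499.5 bp before the start of Acadvl and the fourth 5838.5 bp after that of Acads, and neither lay in a peak. Copies over this distance were not counted for all protein-coding genes, so these numbers have no background and say nothing particular about the group.

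The carnitine shuttle genes had no promoter peak. Cpt1a encodes the liver form of carnitine palmitoyltransferase 1, which makes acylcarnitines at the outer mitochondrial membrane, and Cpt1b encodes the form that predominates in muscle. Cpt2 encodes the enzyme of the inner membrane that turns acylcarnitines back into acyl-CoA. The nearest summit was 589231 bp from the start of Cpt1a, 110520 bp from Cpt1b and 33757 bp from Cpt2. The distance of Cpt1a was the largest among the 10 genes. The summit nearest to Cpt1a lay 242 bp after the start of Ndufs8, a complex I subunit gene, that of Cpt1b 31 bp before the start of Sbf1, and that of Cpt2 6 bp after the start of Czib. With its 5 predicted transcripts included, Cpt1a still had no promoter peak.

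The remaining acyl-CoA dehydrogenases had none either. Acadvl, Acadl and Acads encode the very long-chain, long-chain and short-chain enzymes, which carry out the same reaction as Acadm on other chain lengths. The nearest summits were 14691 bp from Acadvl, 46284 bp from Acadl and 108264 bp from Acads. Of these, only the summit near Acads lay in the promoter window of another gene. The summit near Acadvl was 145 bp after the start of Dvl2, in an exon but not in coding sequence, that near Acadl 570 bp after the start of Kansl1l, in an intron, and that near Acads 442 bp before the start of Sppl3. Among the 4 dehydrogenases, therefore, Acadm alone carried a promoter peak.

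Hadha and Hadhb encode the α and β subunits of the trifunctional protein, which completes the cycle for long chains, and they are transcribed in opposite directions from a shared promoter. Their starts are separated by 272 bases on chromosome 5 (chr5:30154981-30155252). This stretch is shown, on the plus strand, as the shared promoter of the set that carries no peak. It runs from the side of Hadha to that of Hadhb and holds no capitals, because its best match to the palindrome had 3 mismatches.
Hadha and Hadhb: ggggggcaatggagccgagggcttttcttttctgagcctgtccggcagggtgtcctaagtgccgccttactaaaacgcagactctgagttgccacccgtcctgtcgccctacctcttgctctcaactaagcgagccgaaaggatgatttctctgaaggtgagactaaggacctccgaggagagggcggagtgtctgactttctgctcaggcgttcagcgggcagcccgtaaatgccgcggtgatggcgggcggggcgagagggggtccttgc

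The nearest summit to both genes was the same one, 77619 bp from Hadha and 77346 bp from Hadhb, and it lay 18 bp after the start of Selenoi. For the 8 genes without a promoter peak there were thus 7 different nearest summits, each within 570 bp of the start of another gene. In the whole list 2607 of the 3226 peaks had their summit in a promoter, so a summit close to a start is the usual case. The distances of the 8 genes ranged from 14691 to 589231 bp with a median of 77482.5 bp. In the 18192 protein-coding genes without a promoter peak the median was 186975 bp, and 7 of the 8 genes were nearer to a summit than this. Hadha and Hadhb count separately here on the same summit, and with so few genes this says nothing particular about the group. No summit lay inside any of the 10 gene bodies, but this was not counted for all protein-coding genes and has no background.

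**Figure D2:**
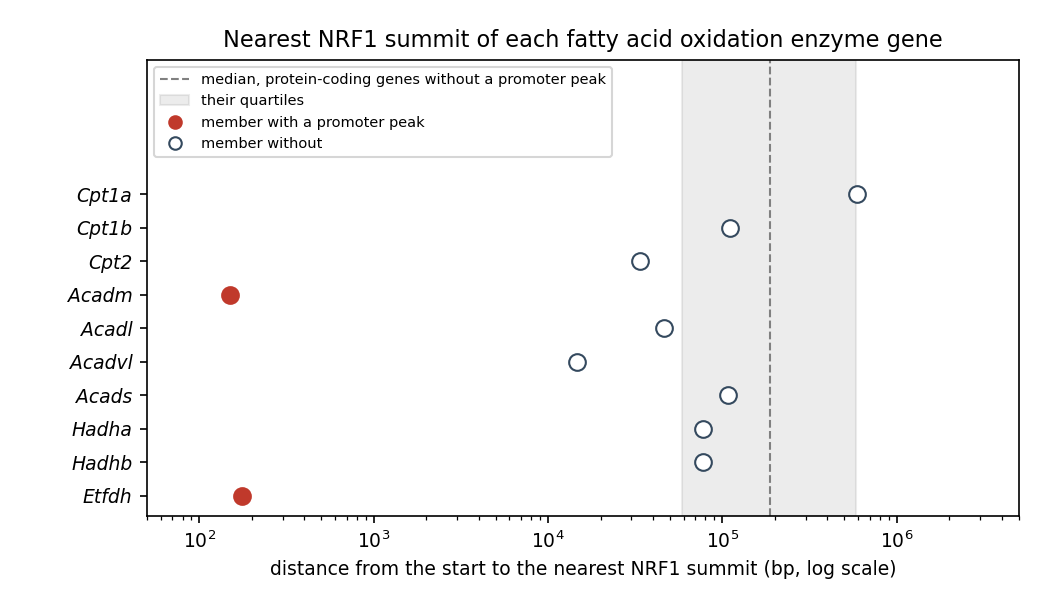
Distance from the start of each gene to the nearest NRF1 summit (x axis, bp, log scale); filled red points have a promoter peak and open points do not. The dashed line and the grey band are the median and quartiles of all protein-coding genes without a promoter peak, and the open points lie between 14691 and 589231 bp.

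Base composition was then compared. In the 300 bases around the start, the observed to expected CpG had a median of 0.853 at genes with a promoter peak, with quartiles of 0.714 and 0.976, and of 0.5 at genes without one. Acadm had 0.459 and Etfdh 0.691, both under the lower quartile of genes with a peak. Above that quartile were 4 of the 8 genes without a peak, namely Acadl (0.932), Hadhb (0.878), Hadha (0.778) and Cpt1a (0.763). Hadha and Hadhb share a promoter, and the share of all genes without a peak above that quartile was not counted. The ratio was 0.701 in Cpt2, 0.579 in Acads, 0.476 in Acadvl and 0.202 in Cpt1b, the muscle form, which was the lowest of the 10. Within this set the genes with a peak were thus not the most CpG-rich ones, and Acadl, with 70.3% GC, exceeded both in GC content (62.3% in Acadm, 57.3% in Etfdh). With only Acadm and Etfdh on one side, this describes the set, and a role of base composition was not tested.

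**Figure D3:**
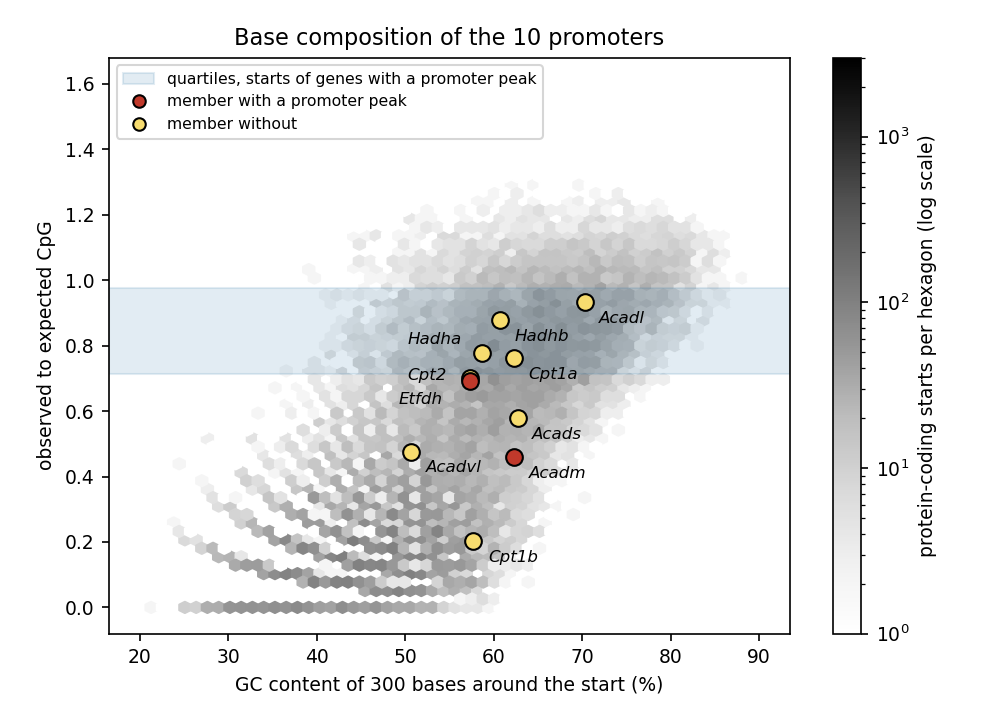
Observed to expected CpG (y axis) against GC content (x axis, %) of 300 bases around the start for the 10 genes; grey hexagons count all protein-coding starts on a log scale, and the blue band spans the quartiles of starts of genes with a promoter peak. Acadm and Etfdh (whose point covers most of that of Cpt2) lie under the band, while Acadl, Hadhb, Hadha and Cpt1a, which have no peak, lie in it.

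To place these genes in their pathway, 55 further genes of fatty acid uptake, oxidation and its control were examined. A promoter peak was present in 13 of them, or 23.6%, beside the 13.4% of all genes. This list was drawn up with earlier results of these data known and was not tested, so the share is a description only. Fold enrichment at these 13 ranged from 5.68 to 26.1 with a median of 13.1, so that Acadm lay above the median and Etfdh below it. The motif was within 100 bp of the summit at 7 of the 13, beside 65.9% of all promoter peaks. The groups by role that follow hold 2 to 10 genes each, too few to be told apart from the 13.4% of all genes.

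The partner of Etfdh in the electron relay is the electron transfer flavoprotein, whose subunits are encoded by Etfa and Etfb. Etfb carried a promoter peak, with a fold enrichment of 19.3 and its summit 15 bp before the start, and no peak lay in the Etfa promoter, where the nearest summit was 185405 bp away. Among 9 other genes of the mitochondrial cycle, 2 had a peak. Acad10, an acyl-CoA dehydrogenase family member, had a fold enrichment of 20.9 at a promoter shared with Brap, and Acaa2, which encodes the thiolase of the last step, had 22.9 at a promoter shared with Scarna17, with the summit 403 bp before the start of Acaa2. Echs1 and Hadh, the enzymes of the hydration and second dehydrogenation of shorter chains, had none.

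Of 4 further carnitine genes, 2 had a promoter peak. Slc22a5, the carnitine transporter of the cell membrane, had a fold enrichment of 15.2, and Crat, carnitine acetyltransferase, had 8.52 at a promoter shared with Ptpa. The mitochondrial carrier Slc25a20 and the brain form Cpt1c had none. Among 9 genes of uptake and activation only Acsl4, an acyl-CoA synthetase, had one (10.5). For the 3 enzymes that prepare unsaturated chains, Eci1, Eci2 and Decr1, the count was 0. In the malonyl-CoA group, which sets the activity of carnitine palmitoyltransferase 1, Mlycd had the lowest fold enrichment of the list, 5.68, and Acaca and Acacb had no peak.

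Peroxisomes shorten very long and branched chains with their own enzymes, and 3 of the 9 peroxisomal genes examined had a promoter peak. These were Hsd17b4 (fold enrichment 13.1), the thiolase Acaa1a (10.3) and the sterol carrier protein gene Scp2 (6.79). Abcd3 was the only gene of the wider list with the motif in its promoter and no promoter peak. Of the 6 genes of thioesterases and ketone metabolism, Acot13 had a peak (13.7), at a promoter shared with Tdp2.

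Among 10 genes of transcriptional control, Esrra and Ppara had a promoter peak. Esrra encodes the estrogen-related receptor α and Ppara the peroxisome proliferator-activated receptor α, nuclear receptors known for driving fatty acid oxidation genes. Esrra had the highest fold enrichment of the list, 26.1, above 95.2% of promoter peaks, with its summit 105 bp before the start and no motif within 100 bp of it. Ppara had 6.02, above 11.2% of promoter peaks, with the summit 2 bp before a start and the exact palindrome 24.5 bp away. The coactivator genes Ppargc1a and Ppargc1b had none. In Nrf1 itself a summit lay 119 bp after a start, 19 bp beyond the promoter window, and was not counted.

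The motif copies nearest to these summits are shown in the direction of each gene, with 10 bases on either side and the copy in capitals, to compare the sites of Acadm and Etfdh with those of 6 of the 7 genes of the wider list that have the motif at the summit. The copy of Acaa2, centred 7.5 bp from its summit, is not shown and not counted among the substitutions.
Acadm: cgggagcaggACGCATGCGCagagggcctt
Etfdh: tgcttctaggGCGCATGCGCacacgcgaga
Etfb: gtgttgcggcGCGCAGGCGCagagacagat
Acot13: gccggaacctGCGCAGGCGCgcagcgtgca
Slc22a5: tccgcctcagGCGCACGCGCggccgatggc
Acad10: ccgccgggtcGCGCACGCGCacgcggaaag
Crat: gggcgccgagGAGCATGCGCactaacggct
Ppara: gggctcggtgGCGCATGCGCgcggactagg

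Etfb and Acot13 carried the same substitution, T6G, and Slc22a5 and Acad10 shared T6C, so that 4 of these 8 copies differed at the sixth base. Substitutions were not counted over all motif-bearing promoter peaks, so this tally has no background and shows nothing particular to these genes. Acadm (G1A) and Crat (C2A) differed near the 5′ end. Etfdh and Ppara held the exact palindrome. Acad10 also had an exact copy within 100 bp of its summit, farther away than the one shown.

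**Figure D4:**
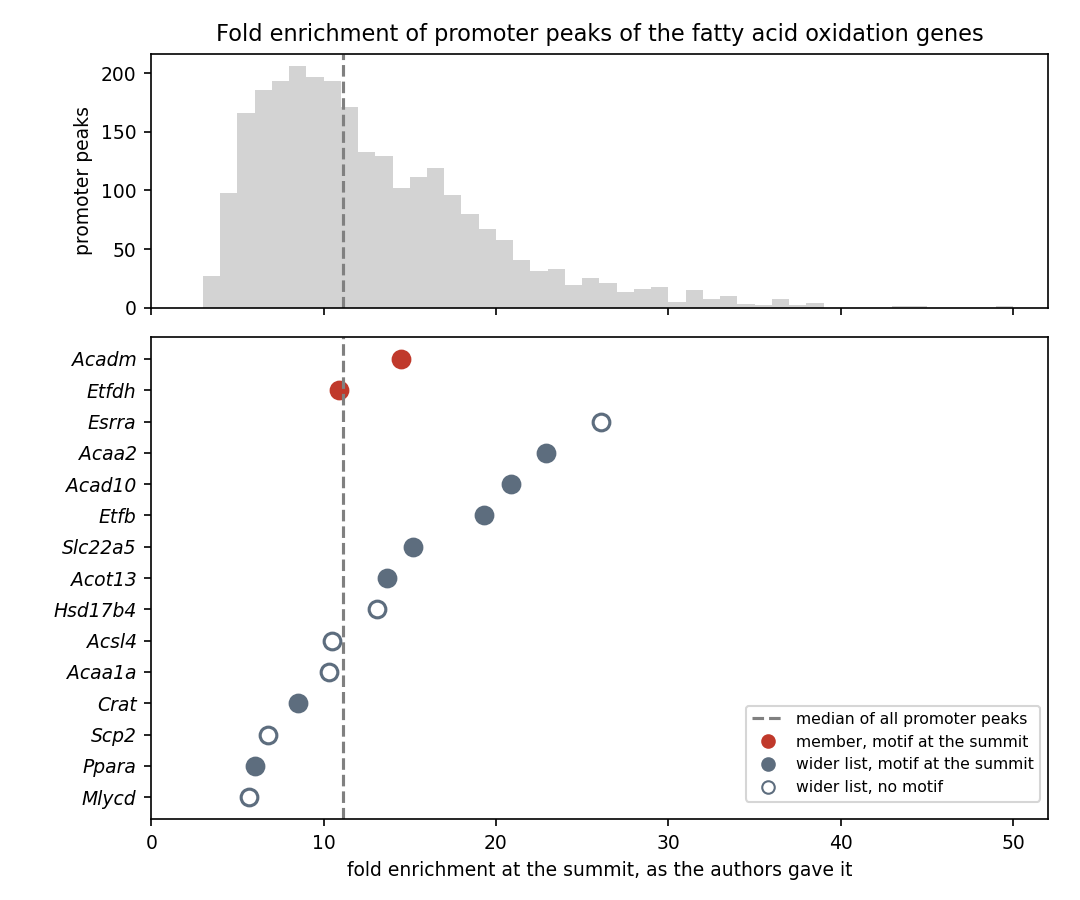
Top, fold enrichment of all 2607 promoter peaks (x axis) as a histogram; bottom, the promoter peaks of Acadm and Etfdh (red) and of the 13 genes of the wider list (grey), open where no motif lay within 100 bp of the summit. The dashed line is the median of all promoter peaks, 11.1; Acadm (14.5) lies above it, Etfdh (10.9) just below it, and Esrra (26.1) is the highest.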

How the data were processed

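NRF1 ChIP-seq of mouse skeletal muscle was analysed from the deposited peak list. According to its methods, single-end reads were aligned to mm10 with Bowtie; the authors kept uniquely mapped reads, removed blacklisted regions and called peaks with MACS2 against input DNA. The deposited columns are the summit position, a display score, a fold enrichment (a ratio over the control) and p-values and q-values on the −log10 scale; 7 peaks have a q above the limit of 0.01 that the methods state. A blacklist of the human genome and broad calling are named in the methods, but the peaks come with summits in a narrow format, so the exact call settings are uncertain. Unique mapping removes signal in repeats, and without the depth a weakly occupied site cannot be told from an unoccupied one. Score and p-value were not used.

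Starts were those of 45756 known RefSeq transcripts of GRCm38.p6 (31603 different starts), from the assembly of mm10. The sequences of 9 genes were also in the RefSeq promoter table (GRCm38.p6) and were identical to it; Cpt1b was not matched. The motif GCGCATGCGC, which reads the same on both strands, was searched with at most 1 mismatch. Python 3.11.15, pandas 2.3.3 and pysam 0.24.0 were used, and promoter assignment and motif search were tested on simulated data. The genes and the wider list were chosen with earlier results of these data known, so no test of the list was made. All 10 genes are named, as are the genes of the wider list with a peak. A further gene drawn up for that list was left out of all its counts, for a reason unrelated to its values, and is not reported here. By their labels the libraries form 1 group, although the reporting summary names the second as input DNA. With 1 peak list, no comparison between samples was possible.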

Additional observations from a re-analysis of the deposited data

How the results depend on the processing

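Of 30 alternative values for 7 results, 3 differed from the reported value by more than 1.5 times. Acadm and Etfdh were the 2 genes with a promoter peak under each of the 7 alternatives run (promoters of 2000 bp before to 500 bp after or 500 bp either side of the start, a q of at most 1e-05, a fold enrichment of at least 5, any overlap of 1 bp, predicted transcripts added, and GENCODE M21 basic starts, which were added after seeing the data). Over these, the count of all genes ranged from 2680 to 3089 and that of the wider list from 13 to 15. For the 10 genes, the results with other windows, cut-offs and overlap followed from values already given, so they are no support. Both summits lay within 176 bp of the start, with a fold enrichment of at least 10.9 and a −log10 q of at least 41.5. The other 8 genes had no summit nearer than 14691 bp. The motif was found at 1 of the 2 peaks with no mismatch (Etfdh) and at 1 within 50 bp of the summit (Acadm), and in 1 promoter, that of Etfdh, with no mismatch, by the construction of these settings. By q-value in place of fold enrichment, the ranks rose to 76.6% for Acadm and 71.3% for Etfdh, and the cause was not tested. Leaving out replicates was not possible with 1 peak list. No paired analysis was possible because only 1 peak list, with no replicate numbers, was analysed. Read depth is unknown and limits each statement on a gene without a peak.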

Other observations

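The Etfdh summit lay nearer to another sequence than to the palindrome. The stretch ACTACAACTCCCAG, chosen after the sequence had been seen, was centred 5.5 bp from the summit. It resembles the motif known for the zinc finger factor ZNF143, which is common at promoters. With at most 1 mismatch on either strand, it occurred within 100 bp of 52 of the 2607 promoter peaks, or 1.99%. The share was 1.63% of promoter peaks with the NRF1 motif and 2.7% of the 888 without it. It was present in the promoters of 397 protein-coding genes, or 1.89%, of which 27.7% had a promoter peak, beside 13.4% of all protein-coding genes. Of the 10 enzyme genes only Etfdh held it, and of the wider list only Slc27a4, which had no promoter peak. Whether this sequence bears on the position of the summit was not tested.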
